A study of Mus musculus with 2 samples.

Results

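Ddit4, Sesn3, Sgk3, Mxd4, Ip6k2, Foxo1 and Foxo3 are mouse genes that restrain growth or lie downstream of growth factor signalling. They are described here in male germ cells of the fetal testis at the embryonic stages E12.5 and E13.5. The 7 genes were taken by name, after their values in these libraries were known, from the 17244 genes listed for at least 1 library; all 7 were listed for both. Their stage differences are therefore given as descriptions. Both libraries are of male CD1 mice, an outbred strain, and the labels name no treatment and no mutation. In both, the cells were sorted by FACS for Oct4GFP, a green fluorescent reporter of the pluripotency gene Pou5f1, so cells without reporter signal were not sampled. Each stage is 1 library made with 10x v2 chemistry, which counts the 3' ends of transcripts by molecular identifier (UMI); how many embryos were pooled for each is not stated. Stage and library cannot be told apart, no test between stages was possible, and every interval below is a 95% interval that covers counting error only.

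As background, growth factor signals pass through PI3K to the kinases AKT and SGK, which phosphorylate FOXO transcription factors and keep them out of the nucleus, and through Rheb to mTORC1, the kinase complex that drives protein synthesis. Ddit4 (REDD1) lowers mTORC1 activity through the TSC complex and is induced by hypoxia, glucocorticoids, p53 and the stress factor ATF4. Sesn3, a sestrin, lowers mTORC1 activity through the GATOR complexes and is a known FOXO target. Sgk3 is a kinase related to AKT that is recruited to endosomes by its phosphoinositide-binding domain. Mxd4 pairs with Max and opposes Myc at E-box sequences, and Ip6k2 makes inositol pyrophosphates, which are linked to inhibition of AKT. Foxo1 and Foxo3 are the transcription factors themselves. Male germ cells leave the mitotic cycle and enter G1/G0 arrest from about these stages onward.

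Only transcripts were measured, so nothing here gives the activity of mTORC1, AKT or FOXO. In GRCm38, with GENCODE M21 models, Ddit4 lies on chromosome 10 (59949669 to 59951834, minus strand), Sesn3 on chromosome 9 (14275067 to 14333101, plus), Sgk3 on chromosome 1 (9798107 to 9900845, plus) and Mxd4 on chromosome 5 (34173883 to 34187720, minus). Ip6k2 lies on chromosome 9 (108783796 to 108806337, plus), Foxo1 on chromosome 3 (52268336 to 52353221, plus) and Foxo3 on chromosome 10 (42181841 to 42276755, minus). All 7 are protein-coding genes. No other gene model overlapped Ddit4, Sesn3 or Foxo3. Foxo1 was overlapped by Gm38034, a model still to be checked experimentally, on its own strand and by the antisense gene Gm20402, which the tables also list, on the other. Gene models on the other strand of Sgk3, Mxd4 and Ip6k2 are not listed in the tables.

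Promoter sequences were matched for 6 of the 7 genes in a RefSeq table (GRCm38.p6, 250 bases before to 50 after the start site); Ip6k2 had 2 entries. They are shown for Ddit4 and Sesn3, the leading pair, and for Mxd4, which stood furthest above its level in cycling cells in the results below. Each is printed 5' to 3' on the gene's strand, limited to bases before the start site that no GENCODE exon covers, with motif matches in capitals. The Sesn3 stretch lies inside the GENCODE span of the gene, in non-exonic sequence before the RefSeq start.
Ddit4 (chr10:59951835-59952020, minus strand): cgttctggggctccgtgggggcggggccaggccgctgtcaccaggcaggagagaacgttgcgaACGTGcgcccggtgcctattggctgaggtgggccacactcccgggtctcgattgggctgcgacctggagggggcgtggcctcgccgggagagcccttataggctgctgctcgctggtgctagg
Sesn3 (chr9:14276051-14276300, plus strand): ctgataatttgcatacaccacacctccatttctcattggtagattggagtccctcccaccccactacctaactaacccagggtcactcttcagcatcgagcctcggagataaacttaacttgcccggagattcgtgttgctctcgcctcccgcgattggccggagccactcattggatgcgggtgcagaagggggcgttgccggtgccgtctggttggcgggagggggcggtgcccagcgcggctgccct
Mxd4 (chr5:34187721-34187960, minus strand): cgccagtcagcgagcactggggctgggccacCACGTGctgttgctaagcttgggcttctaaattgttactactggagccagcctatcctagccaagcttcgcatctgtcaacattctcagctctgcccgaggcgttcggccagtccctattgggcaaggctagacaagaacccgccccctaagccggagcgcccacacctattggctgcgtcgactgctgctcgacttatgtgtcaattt

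In all, 5 motifs were searched on both strands of the full 300 bases: GTAAACA (forkhead, the family of FOXO), CACGTG (E-box), ACGTG (core of the hypoxia element), TGACGTCA (CRE) and TGATGNAA (ATF4 element). CACGTG contains ACGTG on each strand. Ddit4 held 1 ACGTG, 187 bases before the start site, and Mxd4 held 1 CACGTG, 219 bases before it. The Sesn3, Foxo1 and Foxo3 windows and both Ip6k2 windows held none of the 5 motifs. Across the 32851 promoters of the table, 19.6% held ACGTG, 7.15% CACGTG, 3.65% GTAAACA, 1.79% TGACGTCA and 3.97% TGATGNAA. These are matches of letters and not sites of binding.

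Of 2621 barcodes kept at E12.5, 2516 were germ-like, with 59750018 UMIs in sum; of 2670 kept at E13.5, 2579 were germ-like, with 58681245 UMIs. Median depth was 23440.5 UMIs per germ-like cell at E12.5 and 21766 at E13.5, and the median mitochondrial share was 3.86% and 4.69%. All 12 germ markers checked (Dazl, Ddx4, Dppa3 and others) were detected in both libraries, summing to 7349 and 8388.6 CPM, the usual scaling of UMIs to a fixed total of germ-like UMIs. In the germ-like cells all 8 Sertoli markers were detected and summed to 11.7 and 13.1 CPM. The endothelial markers, with Tie1 at 0, summed to 112 and 47.0 CPM, and the red blood cell markers to 0.284 and 23.1 CPM. Their part in the results was not tested. The libraries shared 24 barcodes, 9 of them germ-like in both. Without the shared barcodes Ddit4 was 2.25-fold and Sesn3 2.66-fold higher at E13.5.

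Ddit4 and Sesn3 transcripts were both more than 2-fold higher in the E13.5 library. Ddit4 was at 30.3 CPM in the E12.5 library (Poisson interval 28.9 to 31.7, 1810 UMIs) and at 68.0 CPM in the E13.5 library (66.0 to 70.2, 3993 UMIs). Sesn3 was at 23.5 CPM (22.3 to 24.7, 1403 UMIs) and at 62.5 CPM (60.5 to 64.6, 3668 UMIs). For neither gene did the intervals of the libraries overlap. Set over the E12.5 level, the E13.5 level gave a ratio of 2.25 for Ddit4 (exact conditional binomial interval 2.12 to 2.38) and 2.66 for Sesn3 (2.50 to 2.83).

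Sgk3, Mxd4 and Ip6k2 were higher at E13.5 by a like size. The kinase Sgk3 was at 16.5 and 42.8 CPM, a ratio of 2.60 (2.41 to 2.80). Mxd4 was at 11.1 and 27.9 CPM, a ratio of 2.50 (2.29 to 2.74). Ip6k2 was at 17.1 and 35.3 CPM, a ratio of 2.06 (1.91 to 2.23). The FOXO factors differed less between libraries: Foxo1 was at 59.1 and 83.0 CPM, 1.40-fold higher at E13.5 (1.34 to 1.47), and Foxo3 at 17.9 and 15.8 CPM, 1.13-fold lower (1.04 to 1.24). Thus 5 of the 7 genes were at least 1.5-fold higher at E13.5 and none was 1.5-fold lower. Of the 7308 genes that reached 10 CPM in at least 1 library, 8.57% were at least 1.5-fold higher and 9.91% at least 1.5-fold lower; the genes were chosen on this contrast, so nothing is read from their count.

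**Figure D1:**
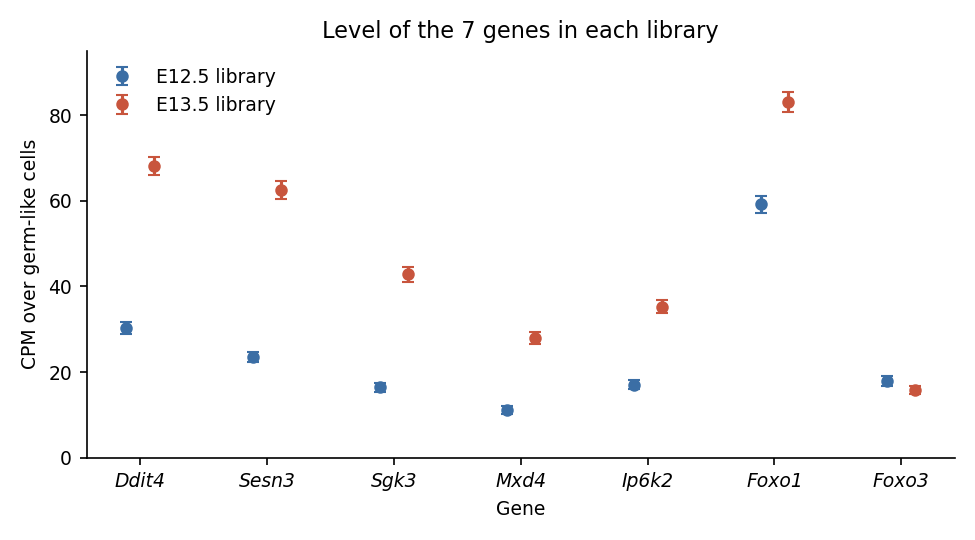
Level of each gene in CPM over all germ-like cells of a library, with Poisson intervals for counting error. Ddit4, Sesn3, Sgk3, Mxd4 and Ip6k2 stand at least 2.06-fold higher at E13.5, Foxo1 1.40-fold higher, and Foxo3 slightly lower.

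None of the 4 relatives of these genes at 10 CPM or more was 1.5-fold apart between the libraries. Sesn2, the stress-induced sestrin, was 1.36-fold lower at E13.5 (1.24 to 1.49; 18.1 and 13.3 CPM). Sgk1 was at 14.7 and 16.1 CPM, a ratio of 1.10 (1.0 to 1.21), and Ip6k1 at 16.4 and 20.1 CPM, a ratio of 1.23 (1.12 to 1.34). Mxi1, another Max partner that opposes Myc, was at 17.2 and 17.0 CPM. A further 5 relatives were under 10 CPM in both libraries: Sesn1 (5.31 and 6.8 CPM), Ddit4l (3.48 and 2.61), Mxd1 (2.08 and 2.51), Mxd3 (5.16 and 4.09) and Foxo4 (9.82 and 9.92). Foxo6 was at 0.452 and 0.256 CPM as well, and Sgk2 and Ip6k3 were not listed.

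The difference was spread over many cells. To compare cells at equal depth, all were thinned to 1 fixed number of UMIs. This kept 2326 E12.5 and 2322 E13.5 cells and dropped 190 and 257 shallower ones. Ddit4 was found in 33.3% of the E12.5 cells (31.4 to 35.2%, exact binomial interval) and in 57.7% of the E13.5 cells (55.7 to 59.7%), or in 44.8% and 69.4% of unthinned cells. Sesn3 was found in 29.5% (27.6 to 31.4%) and 57.2% (55.2 to 59.3%), or in 41.5% and 71.2% unthinned. Cells with 3 or more Ddit4 UMIs were 2.54% of the E12.5 cells and 11.9% of the E13.5 cells, and those with 3 or more Sesn3 UMIs 0.602% and 8.83%. The shares for Sgk3 were 20.5% and 46.4%, for Mxd4 14.6% and 30.7%, for Ip6k2 21.8% and 39.3%, for Foxo1 57.4% and 70.3%, and for Foxo3 22.3% and 20.3%.

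**Figure D2:**
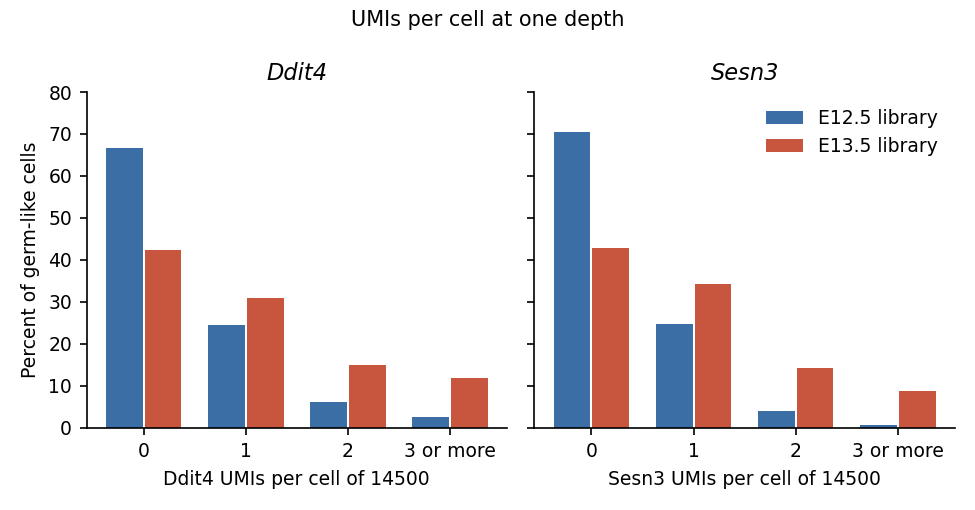
Percent of germ-like cells with 0, 1, 2 or at least 3 UMIs of Ddit4 (left) and Sesn3 (right) in cells thinned to equal depth. At E13.5 fewer cells hold 0 UMIs (42.3% for Ddit4, 42.8% for Sesn3) than at E12.5 (66.7% and 70.5%).

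Ddit4 UMIs were less evenly spread over cells than those of most genes at its level. The variance of its thinned counts over their mean was 1.35 at E12.5, against a median of 1.03 over 1190 genes of like level, and 1.46 at E13.5, against 1.06 over 784 genes. Sesn3 was close to the median at E12.5 (1.02, against 1.03) and above it at E13.5 (1.21, against 1.06). Foxo1 was near 1 in both libraries (1.03 and 1.01). Free RNA in droplets sets a floor to such shares. Thinned to 2000 UMIs, Ddit4 was found in 2 of 29 Sertoli-like cells of both libraries (6.90%, 0.846 to 22.8%; median depth 11418 UMIs), against 5.74% (E12.5) and 12.6% (E13.5) of germ-like cells. Sesn3 was found in 1 of these 29 (3.45%, 0.0873 to 17.8%), against 4.43% and 12.49%. These intervals are too wide to bound the background.

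Cells were next divided by their cell cycle transcripts, summed over a list of 42 S phase genes and a list of 51 G2/M genes, neither of which holds any of the 7. A cell below the mean of both sums, taken over the thinned cells of both libraries, was called low. The others were called S or G2/M by the sum that stood higher above its own mean in SD units, and together cycling. These are ranges of a score and not cell types. At E12.5, 78 of 2326 cells were low (3.35%, 2.66 to 4.17%), and 58 of these lay within 0.25 SD of the limit. At E13.5, 956 of 2322 were low (41.2%, 39.2 to 43.2%), of which 103 lay that near. Low cells at E13.5 had a median of 20583 UMIs and 5.0% mitochondrial UMIs, against 23119.5 UMIs and 4.45% in the S class and 25433.5 UMIs and 4.39% in the G2/M class; the part of depth and mitochondrial share in the results was not tested.

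At E13.5 Ddit4, Sesn3, Mxd4 and Ip6k2 were higher in the low cells than in cycling cells of the same library. Ddit4 was at 102 CPM in low cells (97.5 to 106), 42.3 in the S class (38.8 to 46.0) and 49.7 in the G2/M class (46.8 to 52.7), a ratio of low over cycling of 2.17 (2.03 to 2.31). Sesn3 was at 85.7, 47.5 and 48.8 CPM, a ratio of 1.77 (1.66 to 1.90). The Myc antagonist Mxd4 was at 46.3, 16.5 and 15.9 CPM, a ratio of 2.87 (2.59 to 3.19), the highest of the 7. Ip6k2 was at 48.8, 28.5 and 24.8 CPM, a ratio of 1.87 (1.70 to 2.04). In all 4 the interval of the low class lay above those of both cycling classes, which overlapped each other except for Ddit4.

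Sgk3 and Foxo3 showed smaller ratios and Foxo1 none. Sgk3 was at 52.2, 38.7 and 35.9 CPM, a ratio of 1.42 (1.31 to 1.53), and Foxo3 at 20.0, 15.7 and 12.2 CPM, a ratio of 1.48 (1.30 to 1.69). Foxo1 was at 82.9, 74.9 and 87.6 CPM, a ratio of 0.999 (0.941 to 1.06). So 4 of the 7 genes were at least 1.5-fold higher in low cells and none was 1.5-fold lower, where 4.26% of 7138 genes were higher and 6.49% lower by that size. The genes were chosen with their values in these libraries known, and low cells were far more frequent at E13.5. Nothing is therefore read from this count.

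At E12.5 the ratios of low over cycling cells lay between 0.974 and 1.44, all under 1.5. Ddit4 was at 41.4 CPM in low cells (32.8 to 51.6) and 29.9 in cycling cells, a ratio of 1.38 (1.09 to 1.73), and Ip6k2 at 24.1 and 16.7 CPM, a ratio of 1.44 (1.05 to 1.94). For Sesn3 the levels were 23.1 and 23.3 CPM, a ratio of 0.988 (0.714 to 1.33), and for Mxd4 14.1 and 10.8 CPM, a ratio of 1.30 (0.853 to 1.92). Sgk3 (1.13), Foxo3 (1.09) and Foxo1 (0.974) had intervals that held 1. Of 7120 genes compared there, 1.53% were at least 1.5-fold higher in low cells and 1.97% lower. The 78 low cells held only 27 to 110 UMIs of each gene. For Ddit4, Sesn3 and Mxd4 the E13.5 ratio lay outside these intervals, but the low classes are not matched between libraries. Low cells held on average 58.1 S and 103 G2/M list UMIs at E12.5, against 36.2 and 73.1 at E13.5. The S list itself had a median log2 ratio of low over cycling cells of -0.33 and -0.94. The ratios are thus not of a like contrast, and nothing is concluded from their difference. Setting the limits within each library, which gave 333 low cells at E12.5, gave 1.24 for Ddit4 (1.09 to 1.40), 0.977 for Sesn3 (0.832 to 1.14), 1.12 for Mxd4 (0.892 to 1.39) and 1.07 for Ip6k2 (0.890 to 1.28), whose interval then held 1. Other settings gave higher values. Ddit4 was at 1.57 (1.24 to 1.96) without the 3 highest S genes. On thinned counts Mxd4 was at 1.63 (0.995 to 2.52) and Ip6k2 at 1.61 (1.083 to 2.31). With scanpy phase calls, which left 6 cells in G1, Ddit4 was at 2.80 (1.28 to 5.34), Mxd4 at 3.45 (0.937 to 8.88) and Ip6k2 at 3.91 (1.57 to 8.08), so whether these 3 pass 1.5-fold at E12.5 depends on the setting.

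Cells of each library were also ranked by the sum of both lists and divided into 5 equal bins. The bins use the same list UMIs as the classes and are not a separate observation. At E13.5 Ddit4 stood at 105, 99.5, 55.8, 48.7 and 39.8 CPM from the bin with the fewest cell cycle UMIs to that with the most. Sesn3 stood at 90.2, 83.9, 54.4, 45.2 and 45.7 CPM, and Mxd4 at 49.4, 44.3, 22.7, 12.7 and 14.3 CPM. At E12.5 the 5 values lay between 28.0 and 35.8 CPM for Ddit4, between 22.6 and 24.6 CPM for Sesn3 and between 10.0 and 11.7 CPM for Mxd4. The highest Ddit4 value there was that of the bin with the fewest cell cycle UMIs (32.4 to 39.5). Its interval lay above those of all other bins but the last. In the 2 bins with the most cell cycle UMIs, Sesn3 still stood at 45.2 and 45.7 CPM at E13.5, against 23.2 and 23.3 CPM at E12.5. For Mxd4 the levels there were 12.7 and 14.3 CPM against 11.7 and 10.0 CPM, with intervals that overlapped in the first of these bins and not in the last. Across the thinned E13.5 cells, Spearman's rho with the S and G2/M sums was -0.31 and -0.28 for Ddit4, -0.24 and -0.28 for Mxd4, and -0.06 and -0.02 for Foxo1, given as descriptions over cells of 1 library. In the same cells rho with the cell's depth was -0.14 for Ddit4 and -0.07 for Sesn3, and rho with the mitochondrial share 0.08 and 0.12; their part was not tested. The bins are not matched between libraries: the lowest E12.5 bin spanned 65 to 192 cell cycle UMIs per cell and the lowest E13.5 bin 47 to 102.

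**Figure D3:**
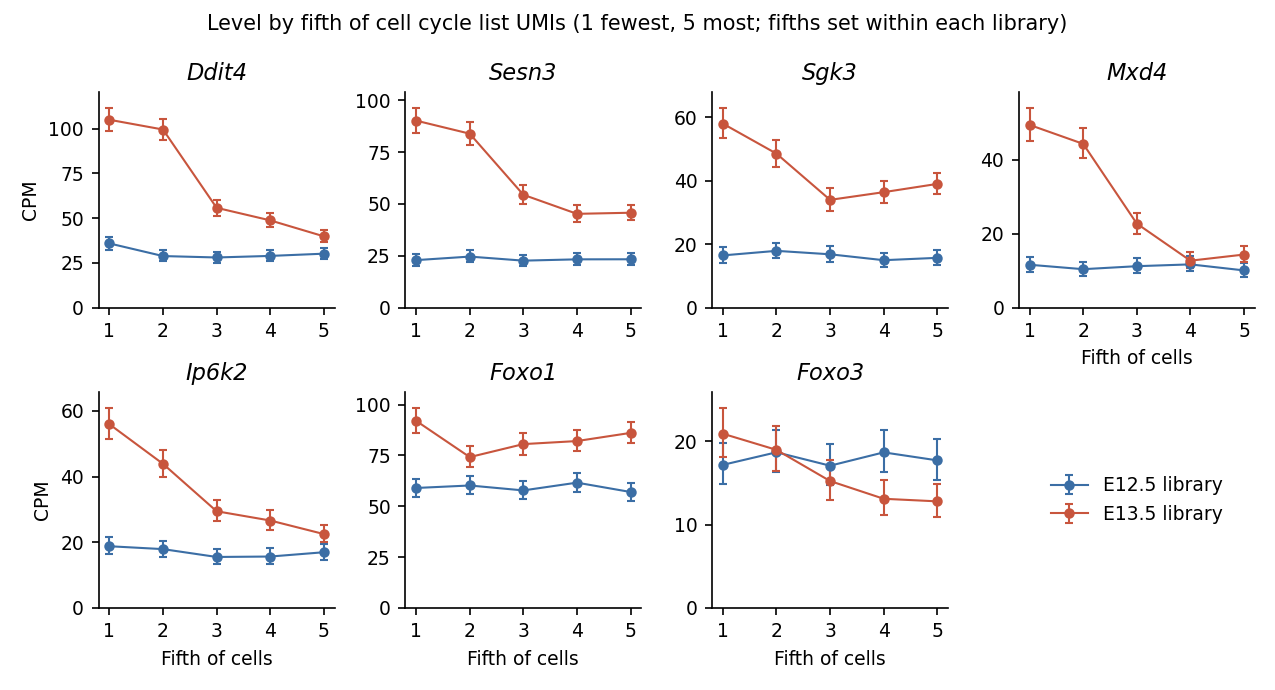
Level in CPM of each gene (y axes from 0, each with its own range) by bin (5 equal bins) of germ-like cells ranked by UMIs of the S and G2/M lists within a library, with Poisson intervals. E12.5 lines are flatter than those of E13.5, though Ddit4 at E12.5 stands highest in the first bin (35.8 CPM). At E13.5 every gene but Foxo1 has its 2 highest levels in the 2 bins with the fewest cell cycle UMIs. Foxo1 stands highest in the first (92.0 CPM) and lowest in the next (74.2 CPM).

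Higher levels at E13.5 were also found within the cycling classes, but not to the same degree for each gene. Sgk3 was higher at E13.5 by much the same ratio in each class: 2.85 in low cells (2.04 to 4.11), 2.22 in the S class (1.96 to 2.52) and 2.41 in the G2/M class (2.13 to 2.73). Sesn3 had ratios of 3.72 (2.76 to 5.14), 1.94 (1.74 to 2.16) and 2.23 (2.01 to 2.48). Ddit4 had ratios of 2.46 (1.96 to 3.12), 1.36 (1.22 to 1.51) and 1.75 (1.59 to 1.93), and Mxd4 of 3.28 (2.24 to 5.0), 1.47 (1.24 to 1.75) and 1.53 (1.30 to 1.80). Foxo1 had 1.44, 1.29 and 1.44. Foxo3 had 1.03 in low cells (0.736 to 1.48) and was 1.49-fold lower at E13.5 in the G2/M class (1.28 to 1.74). Each ratio for low cells rests on the 78 low cells of E12.5.

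Weighting the classes alike in both libraries gave smaller stage ratios for most of the genes. With the E13.5 class levels weighted by the class mix of E12.5, the ratio went from 2.23 to 1.57 for Ddit4, from 2.51 to 1.57 for Mxd4, from 2.05 to 1.63 for Ip6k2 and from 2.68 to 2.12 for Sesn3. It went from 2.61 to 2.32 for Sgk3 and from 1.40 to 1.36 for Foxo1. With the mix of E13.5 in both libraries the ratios were 2.0 for Ddit4, 2.29 for Mxd4, 1.80 for Ip6k2 and 2.72 for Sesn3, a weighting that leans on the 78 low cells of E12.5.

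**Figure D4:**
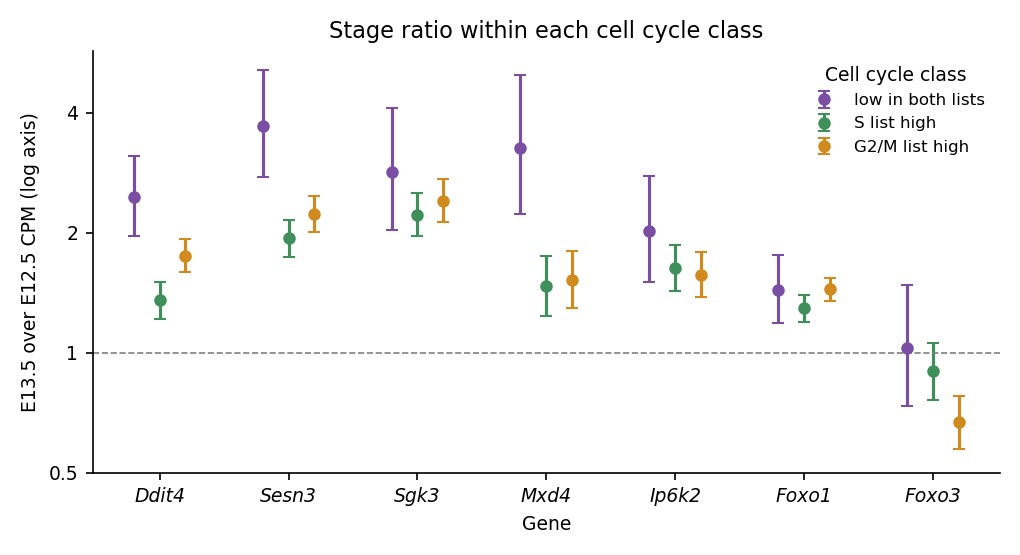
Ratio of E13.5 over E12.5 CPM on a log axis for each gene within the 3 cell cycle classes, with exact conditional binomial intervals; the dashed line marks a ratio of 1. Sgk3 has ratios of 2.22 to 2.85 in the 3 classes, with overlapping intervals. For Sesn3, Mxd4 and Ddit4 the interval of low cells (ratios 3.72, 3.28 and 2.46) lies above those of the S and G2/M classes.

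At E13.5 Sesn3 was found more often in cells with Ddit4 than in cells without it, and at E12.5 the shares were alike. At E12.5, 229 of 2326 thinned cells held both (9.85%, 8.66 to 11.1%); Sesn3 was found in 29.6% of the 774 cells with Ddit4 and in 29.5% of the 1552 cells without it. At E13.5, 834 of 2322 held both (35.9%, 34.0 to 37.9%); Sesn3 was found in 62.2% of the 1340 cells with Ddit4 (59.6 to 64.8%) and in 50.4% of the 982 without it (47.2 to 53.6%). Mxd4 went with Ddit4 in the same way: 36.3% (33.7 to 38.9%) against 23.1% (20.5 to 25.9%) at E13.5, and 14.1% against 14.9% at E12.5. Foxo1 did not, with 69.9% against 70.8% at E13.5. Sgk3 (48.4% against 43.7%) and Ip6k2 (40.9% against 37.1%) had smaller gaps, with overlapping intervals.

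Within each E13.5 cell cycle class the gaps for Sesn3 and for Mxd4 were smaller than over all cells, and the intervals overlapped. In the G2/M class the gaps were the largest of the classes and the overlap was slight. Overlap of separate intervals does not place a gap within counting error, and no interval of a gap was computed. Among the 956 low cells of E13.5, Sesn3 was found in 69.9% of cells with Ddit4 (66.5 to 73.3%) and in 67.9% of those without (61.3 to 73.9%), and Mxd4 in 47.4% (43.7 to 51.1%) and 42.0% (35.4 to 48.7%). In the S class Sesn3 was found in 51.5% and 45.3%, with overlapping intervals. In the G2/M class Sesn3 was found in 53.7% (48.7 to 58.6%) and 45.2% (40.5 to 50%), and Mxd4 in 22.9% (18.9 to 27.3%) and 15.3% (12.1 to 19.0%). Of the 834 cells at E13.5 with both Ddit4 and Sesn3, 61.4% were low (58.0 to 64.7%), against 43.5% of those with Ddit4 alone, 30.7% of those with Sesn3 alone and 14.8% of the 487 with neither (11.7 to 18.2%). At E12.5 these shares were 3.06%, 3.85%, 3.72% and 3.01%, with overlapping intervals.

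**Figure D5:**
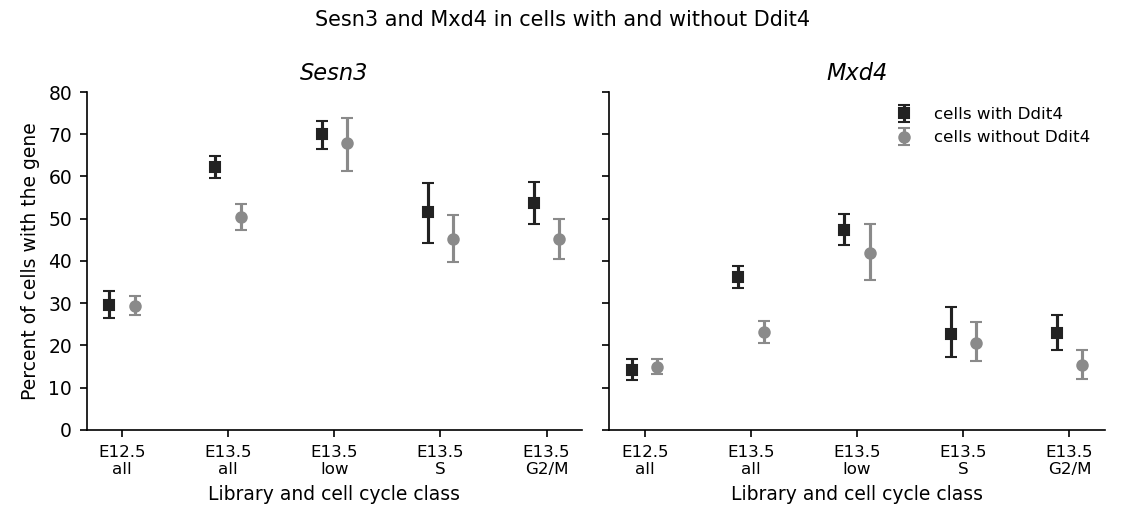
Percent of thinned cells with Sesn3 (left) or Mxd4 (right) among cells with Ddit4 (squares) and without it (circles), for all cells of each library and for the E13.5 cell cycle classes, with exact binomial intervals. The gap at E13.5 over all cells (62.2% against 50.4% for Sesn3) narrows in low cells (69.9% against 67.9%) and less so in the G2/M class (53.7% against 45.2%).

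Across the joint clusters of germ-like cells, E12.5 levels were closer together than E13.5 levels. At E12.5, Ddit4 stood at 28.1 (26.0 to 30.2), 28.4 (25.9 to 31.1) and 35.1 CPM (32.4 to 37.9) in the 3 clusters that held nearly all cells. The interval of the last thus lay above both others. In the same order Sesn3 stood at 22.3, 22 and 26.5 CPM, with overlapping intervals. Mxd4 stood at 10.1, 10.4 and 13.3 CPM and Foxo3 at 15.35, 17.9 and 21.5 CPM. For both, the interval of the last cluster lay above that of the first. At E13.5 the order of Ddit4 was 107 CPM (102 to 112) in the 844 cells of a cluster led by Nanos2, Egr4 and Ptgr1, 73.2 (68.8 to 77.7) in one led by Krt17, 41.3 in one led by histone genes and 40.8 in one led by Tuba3b and Lefty1; the last pair did not differ beyond their intervals. Sesn3 followed the same order, at 90.6, 58.7, 47.2 and 47.7 CPM, the last pair again overlapping. Mxd4 was at 50.6, 25.3, 15.5 and 14.9 CPM and Ip6k2 at 55.2, 31.4, 27.2 and 22.6 CPM. Foxo1 took another order, at 88.8, 74.1, 78.8 and 90.02 CPM. The clusters were drawn from the transcripts of the same cells, so these are descriptions.

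Nanos2 encodes an RNA-binding protein that marks the male germ cell pathway. At E13.5, Ddit4 was at 87.9 CPM in the 622 thinned cells with a Nanos2 UMI and 60.7 CPM in the 1700 without, a ratio of 1.45 (1.35 to 1.55); within low cells the ratio was 1.09 (1.003 to 1.19). Sesn3 was at 81.3 and 56.0 CPM, a ratio of 1.45 (1.35 to 1.56), and 1.19 within low cells (1.09 to 1.31).

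By Spearman's rho across thinned cells, averaged over the libraries and ranked over 6296 genes at 10 CPM or more in both (mitochondrial and ribosomal protein genes left out), the genes most like Ddit4 were Sox4, Hsp90ab1, Eef1a1, Ftl1 and Eef2 (mean rho 0.127 for Sox4 and 0.0971 for Eef2), and Mxd4 ranked 14th and Sesn3 43rd. Sox4 is a transcription factor, and Eef1a1 and Eef2 are translation elongation factors. The least like were Top2a, Tuba3a and Gmnn (-0.198, -0.179 and -0.168), among them the mitotic topoisomerase and geminin, an inhibitor of replication licensing. For Sesn3 the nearest were Eef1a1, Eef2, Uchl1, Dppa3 and Sox4 (0.108 for Eef1a1), and the farthest Top2a, Tubb4b and Birc5 (-0.132 for Top2a). The values at E13.5 were larger than at E12.5: between Ddit4 and Top2a rho was -0.328 and -0.0686, and between Ddit4 and Sesn3 0.130 and -0.00256. The cells of a library share its depth and its range of cycle states, so these rho are descriptions; in counts this sparse they are small for nearly all genes.

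The pathways around the 7 genes showed no common direction between stages. Of 16 PI3K, AKT and SGK kinases and receptors at 10 CPM or more, 4 were at least 1.5-fold higher at E13.5 and 4 lower, with a median log2 ratio of 0.13. Over all 7308 genes 8.57% were higher and 9.91% lower by that size, with a median of -0.02, and each list below is set beside these shares. The receptor Igf1r had the highest ratio, 3.42 (3.09 to 3.79; 8.35 and 28.5 CPM), and Akt1 the lowest, 2.64-fold lower (2.43 to 2.88; 32.4 and 12.2 CPM). Of 15 mTORC1 and Rag genes at 10 CPM or more none was higher and 1 was lower, the mTOR inhibitor Deptor (1.83-fold lower, 22.1 and 12.1 CPM). Below that level Rragd was 2.76-fold higher (2.34 to 3.27, 3.31 and 9.15 CPM), and Rragb and Fnip2 were not 1.5-fold apart. Of 8 genes of GATOR1, GATOR2 and KICSTOR, through which sestrins act, none was 1.5-fold apart. Of 6 AKT brakes, Tsc1 of the TSC complex was 1.55-fold higher and Trib3 1.53-fold lower. Of 8 transcripts of mTORC1 substrates and effectors, Pdcd4, an inhibitor of translation, was 1.85-fold higher and the autophagy kinase Ulk1 1.62-fold lower. Of 26 ribosome biogenesis genes, Rrs1 was higher and Rrn3 lower by that size. Among 8 genes of the Myc, Max and Mxd network, Mxd4 alone was 1.5-fold apart, and the lowest ratio was that of Mycn (1.22-fold lower, 54.3 and 44.4 CPM). Of 8 inositol phosphate kinases, Ip6k2 was higher and Itpk1 2.80-fold lower (35.3 and 12.6 CPM).

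Sesn3 and Ddit4 were 2 of 3 FOXO targets, of 11 measured, that were at least 1.5-fold higher at E13.5, where 8.57% of all genes were higher and 9.91% lower; the third was the co-regulator Cited2, at 11.8 and 32.8 CPM (ratio 2.79, 2.55 to 3.04). The pro-apoptotic target Bcl2l11 was 2.14-fold lower (18.0 and 8.44 CPM), and the median log2 ratio of the list was -0.08 (0.12 with genes down to 5 CPM). Targets of the other inducers known for Ddit4 are given next as transcript levels only, and whether any inducer acted on Ddit4 was not tested. Of 13 hypoxia targets Ddit4 alone was higher and 3 were lower, with Egln3 2.68-fold lower (29.0 and 10.8 CPM). Of 7 ATF4 targets 2 were higher, Ddit4 and Phgdh (3.89-fold), and 3 were lower, Trib3, Asns and Psat1 (1.92-fold). Of 11 p53 targets 2 were higher, Ddit4 and Pmaip1 (5.45-fold, 8.0 and 43.6 CPM), and 3 lower, with Phlda3 3.46-fold lower. Of 4 glucocorticoid targets at 10 CPM or more Ddit4 alone was 1.5-fold apart. Below that level Tsc22d3 was 3.31-fold higher (0.870 and 2.88 CPM) and Zbtb16 9.42-fold higher (0.134 and 1.26 CPM), and Per1 and Klf9 were not 1.5-fold apart. Of 6 immediate early genes Egr1 was 2.16-fold higher (7.92 and 17.1 CPM). In each of these lists Ddit4 counts as 1 of the members said to be higher, except the last, which does not hold it. Of 15 regulators of G1 and quiescence 2 were higher and 4 lower; Cdkn1c, an inhibitor of cyclin-dependent kinases, was 4.02-fold higher (19.8 and 79.8 CPM) and Ccne1 3.29-fold lower (63.0 and 19.1 CPM).

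The same lists were read between low and cycling cells of E13.5. Of 12 FOXO targets 4 were at least 1.5-fold higher in low cells and none lower, with a median log2 ratio of 0.46, where 4.26% of all 7138 genes were higher and 6.49% lower, with a median of -0.01; the highest was the ubiquitin ligase gene Fbxo32 (log2 ratio 1.55), and the list holds Ddit4 and Sesn3. At E12.5 none of 12 was 1.5-fold apart, with a median of 0.31, where 1.53% of all genes were higher and 1.97% lower. Of 10 p53 targets at E13.5, Ddit4 was higher and Cdkn1a lower, with a median of -0.11. At E12.5, 4 of 12 p53 targets were higher and none lower, with a median of 0.49, and Phlda3 was the highest (1.11). Of 10 hypoxia targets 2 were higher and 1 lower, and of 7 ATF4 targets Ddit4 alone was higher and none lower. Of 15 mTORC1 and Rag genes Rragd alone was higher (log2 ratio 1.26), and of 26 ribosome biogenesis genes none was higher and Nop58 alone lower (-0.63). In the Myc, Max and Mxd network Mxd4 was higher (1.52) and Mycn lower (-0.64). Of the other lists at E13.5, 2 of 15 PI3K, AKT and SGK genes were higher and 1 lower, and of 17 regulators of G1 and quiescence 4 were higher and 3 lower. Of 6 AKT brakes Tsc1 alone was higher, of 8 mTORC1 substrates and effectors Pdcd4 alone, and of 8 inositol phosphate kinases Ip6k2 alone, with none lower in these 3. None of 8 GATOR and KICSTOR genes was 1.5-fold apart. Of 5 glucocorticoid targets 1 was higher and 1 lower, and of 6 immediate early genes 2 were higher and 1 lower.

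Other cells of the same libraries also held these transcripts. In the 25 Sertoli-like cells of E13.5, with 293042 UMIs in sum, Mxd4 was at 75.1 CPM (47.0 to 114), Foxo3 at 64.8 (39.0 to 101), Sgk3 and Ip6k2 at 68.3 each (41.7 to 105), Ddit4 at 47.8 (26.1 to 80.2), Sesn3 at 34.1 (16.4 to 62.8) and Foxo1 at 23.9 (9.60 to 49.2). For Mxd4, Ip6k2 and Foxo3 these intervals lay above the germ-like levels of E13.5 and for Foxo1 below, while for Ddit4, Sesn3 and Sgk3 they overlapped them.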

How the data were processed

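The authors deposited raw UMI counts per gene and barcode, 1 table per stage. Per the submitters' processing notes the tool was Cell Ranger and the build mm10/GRCm38; version and annotation are not given in the sources used here. A barcode was kept if it had at least 500 genes and a mitochondrial share below 10%. Barcodes with 0.5% or more blood marker UMIs, a limit set after seeing the data, were set aside. The rest were clustered jointly in scanpy 1.11.5 (leidenalg 0.10.2, 2000 variable genes, 30 components, resolution 0.5). Clusters were named from marker lists; a low-UMI cluster (98 barcodes at E12.5, 62 at E13.5) stayed unnamed. Scrublet, as in scanpy, called 65 and 27 doublets, which were kept.

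Germ-like counts were summed and scaled to CPM. Levels have exact Poisson intervals, ratios exact conditional binomial and shares exact binomial (Clopper-Pearson) ones. Genes under 3 UMIs had no ratio; 1.5-fold is a class of size. With 1 library per stage no test was made. Interval and thinning code was tested on simulated data.

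The 7 genes and all lists were chosen with earlier results of these data known. Other genes named are the highest and lowest ratio of each list at 10 CPM or more, those 1.5-fold apart in lists of up to 10 genes, family members, and the nearest genes by rho. Asns, Rragd, Fbxo32, Cdkn1b, Ccng2, Gadd45a, Pdk4, Nop58, Cdkn1a, Nanos2, Tsc22d3, Zbtb16, Per1, Klf9 and the genes that lead clusters were named after their values were seen. Alternatives included TMM factors (edgeR 4.0.16), other cell filters, denominators and thinning depths, and scanpy phase calls.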

Additional observations from a re-analysis of the deposited data

Results flagged for a closer look

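Sesn3 stood in opposite directions in the 2 libraries in its log2 ratio of low over cycling cells: -0.017 at E12.5 and 0.83 at E13.5. The E12.5 value has a counting interval that holds 0 and turned positive under some alternatives (0.23 without the 3 highest G2/M genes), and the difference between the libraries was not tested.

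Barcodes left out for 10% or more mitochondrial UMIs, which only the alternative with no cell filter used, also held the 7 genes. Their summed level there was 219.5 CPM at E12.5 (157.5 to 298, 45 barcodes) and 338 CPM at E13.5 (285 to 397, 91 barcodes), against 175.5 and 335 CPM in germ-like cells.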

How the results depend on the processing

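Of the 7 genes, 5 were at least 1.5-fold higher at E13.5 under all 12 alternatives: TMM factors, 2 other denominators or weights, other cell filters, no Scrublet calls, the germ marker rule, a 2-fold limit, and, chosen after seeing the data, no shared barcodes, blood barcodes kept and either cell cycle class mix. The genes were chosen on this contrast, so nothing is read from this count. In the main setting 8.57% of 7308 genes were at least 1.5-fold higher, and the share under the alternatives is not given here. No stage ratio or low over cycling ratio whose interval excluded 1 changed direction. The Ddit4 log2 stage ratio moved from 1.17 to 1.02 under a stricter cell filter (at least 2000 genes, mitochondrial share below 5%), to 0.65 with the class mix of E12.5 and to 0.996 with that of E13.5. The Sesn3 value moved from 1.41 to 1.29 under that filter and to 1.081 with the class mix of E12.5. With scanpy phase calls in place of the list sums, where 444 cells of E13.5 and 6 of E12.5 were in G1, the log2 ratio of low over cycling cells at E13.5 moved from 1.12 to 0.81 for Ddit4 and from 0.83 to 0.63 for Sesn3; the cause was not tested. A minimum of 5 or 50 CPM in place of 10 turned the sign of the median log2 stage ratio of the FOXO targets (-0.08 to 0.12 and 1.17) and the G1 and quiescence regulators (-0.10 to 0.12 and 0.01). The 50 CPM minimum also turned those of the hypoxia targets (-0.14 to 0.73), AKT brakes (-0.22 to 0.24), p53 targets (-0.09 to 0.02) and mTORC1 substrates and effectors (-0.002 to 0.06). The share of cells with Ddit4 followed depth: 13.2% and 28.9% at 5000 UMIs, 44.8% and 69.4% without thinning. The E12.5 low class has 78 cells, which limits what can be seen there. No paired analysis was possible because each stage has 1 library and no result comes from a test.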
